A study of Homo sapiens with 16 samples.

Results

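The genes described here are 38 genes of glycolysis and of the cellular response to low oxygen, followed across sublines of 2 triple-negative breast cancer cell lines that had been sorted for activity of a Wnt reporter. The members are named genes with textbook roles in these processes, chosen by no threshold on measured values but with earlier results of these data known. Each symbol was matched to the Ensembl identifier of the count and TPM tables. All 38 were found among the 57820 genes of the tables, and all 38 passed the filter on low values, a sum of 10 or more counts within a serum condition, which 16069 protein-coding genes passed in low serum and 15414 passed in standard serum. By role they are 4 transporters of glucose and lactate, 17 glycolytic enzymes, 3 regulators of glycolytic flux, 2 carbonic anhydrases, 2 hypoxia-inducible factor subunits and 10 hypoxia-response genes outside glycolysis.

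Glycolysis converts glucose into pyruvate in the cytosol, and lactate dehydrogenase then reduces pyruvate to lactate, which leaves the cell through monocarboxylate transporters together with a proton. When oxygen falls, the prolyl hydroxylases that mark hypoxia-inducible factor (HIF) subunits for degradation lose activity, the subunits accumulate, and the HIF dimer binds DNA at a short core sequence near genes of glucose uptake, glycolysis, pH control and survival. Many tumor cells keep glycolysis high even where oxygen is present, and Wnt signaling is one of several inputs that have been linked to this state.

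RNA-Seq was performed on sublines of MDA-MB-231 and MDA-MB-436, both mesenchymal triple-negative lines, each carrying 7TGP, a stably selected vector in which Tcf/Lef binding sites drive eGFP. Each line had been sorted repeatedly by eGFP into a reporter-negative subline (7TGP-NEG) and a reporter-positive subline (7TGP-POS), so that each group is 1 sorted population of 1 line and all groups carry the vector and had passed puromycin selection. Low serum was 0.5% FBS with harvest on day 3, and standard serum was 10% FBS with harvest on day 6, which gives 8 groups of 2 replicates and 16 libraries. Serum, day and, according to the study's methods, RNA enrichment and sequencer changed together, so their parts cannot be told apart and no value was tested between the serum conditions. By the same methods MDA-MB-231 sublines were kept in a different base medium from MDA-MB-436 sublines, so line and medium cannot be told apart.

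The libraries held 27918418 to 46044073 counts. Of the cell identity markers, CDKN2A, which is deleted in MDA-MB-231, held 0 to 8 counts in the MDA-MB-231 libraries and 2890 to 3764 in those of MDA-MB-436. VIM, a mesenchymal marker, stood at 650 CPM or above in every library, and CDH1, the epithelial cadherin, held at most 12 counts. Not all epithelial markers were low, as KRT18 stood at 135 to 345 CPM. EPCAM held 223 to 270 counts in MDA-MB-231 and 44 to 133 in MDA-MB-436. The T cell gene CD3E held at most 2 counts, while PTPRC, a leukocyte gene, held 56 to 334 counts in MDA-MB-231 and at most 10 in MDA-MB-436. In the MDA-MB-436 7TGP-POS group in standard serum, the log ratio of the replicates was related to gene GC content across genes (r = -0.68), against r of 0.37 in the MDA-MB-231 7TGP-POS group in low serum and -0.19 to -0.03 in the other groups, and counts for that group are given below also with each of its libraries left out.

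Levels are given as CPM, counts scaled to the TMM-adjusted total on the tested genes, and as TPM, the authors' length-scaled values, where different genes are set side by side. Differences are log2 fold changes from edgeR's quasi-likelihood test, with p-values adjusted by Benjamini-Hochberg over all genes tested in that serum condition. A gene rose or fell where that adjusted p was under 0.05, and is called a DEG where the absolute log2 fold change was also at least 1. The 2 replicates of a group are separate samples by their labels, and the p-values measure the spread between these samples only. In the low-serum libraries the deposited TPM values placed the median log2 fold change of all genes lower than the count model did, by 0.12 in MDA-MB-231, 0.17 in MDA-MB-436 and 0.20 between the 7TGP-NEG sublines on log2(TPM + 1), and by 0.18, 0.23 and 0.34 on log2(TPM + 0.1), where the 7TGP-NEG sublines were also 0.14 lower in standard serum, so small low-serum changes depend on this choice and are marked where they do.

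For 5 of the 8 members called a DEG in some comparison, the 250 bases before the annotated start site are shown because they can be read for the HIF core sequences that textbooks give, ACGTG and GCGTG. The sequences are from RefSeq, build GRCh38.p14, printed 5′ to 3′ on the strand of the gene, and capitals mark matches to ACGTG or GCGTG or their reverse complements CACGT and CACGC.
ALDOC, chr17:28576896-28577145, minus strand: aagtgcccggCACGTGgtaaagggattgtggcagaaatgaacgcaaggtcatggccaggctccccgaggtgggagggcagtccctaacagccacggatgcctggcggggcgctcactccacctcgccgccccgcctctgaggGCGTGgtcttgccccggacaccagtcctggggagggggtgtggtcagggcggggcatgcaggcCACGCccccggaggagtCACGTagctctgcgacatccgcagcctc
EGLN3, chr14:33951075-33951324, minus strand: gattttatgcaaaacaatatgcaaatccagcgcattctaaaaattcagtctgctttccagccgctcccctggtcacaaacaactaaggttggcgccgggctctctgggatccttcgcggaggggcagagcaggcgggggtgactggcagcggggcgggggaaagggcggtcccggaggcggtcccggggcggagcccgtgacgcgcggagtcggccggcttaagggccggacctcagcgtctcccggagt
ADM, chr11:10304823-10305072, plus strand: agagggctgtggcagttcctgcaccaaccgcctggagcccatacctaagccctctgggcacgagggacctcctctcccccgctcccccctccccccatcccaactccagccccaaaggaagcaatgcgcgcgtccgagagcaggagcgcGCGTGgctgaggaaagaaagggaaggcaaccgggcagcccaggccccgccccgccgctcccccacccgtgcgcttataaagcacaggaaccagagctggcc
DDIT4, chr10:72273674-72273923, plus strand: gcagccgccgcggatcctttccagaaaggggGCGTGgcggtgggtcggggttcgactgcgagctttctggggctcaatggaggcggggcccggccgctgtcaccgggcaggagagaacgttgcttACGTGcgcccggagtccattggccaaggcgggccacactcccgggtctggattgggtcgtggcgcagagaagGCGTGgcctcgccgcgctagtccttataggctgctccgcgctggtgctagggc
CA9, chr9:35673678-35673927, plus strand: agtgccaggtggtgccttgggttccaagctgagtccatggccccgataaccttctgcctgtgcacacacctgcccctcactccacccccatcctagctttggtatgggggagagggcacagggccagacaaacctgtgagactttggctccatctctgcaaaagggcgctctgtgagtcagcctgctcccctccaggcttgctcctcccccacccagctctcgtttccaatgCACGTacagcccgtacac

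The ALDOC stretch holds 3 matches to ACGTG over both strands, of which a pair lies in 1 palindromic CACGTG, and 2 to GCGTG. The DDIT4 stretch holds 1 match to ACGTG and 2 to GCGTG, CA9 holds 1 to ACGTG, ADM holds 1 to GCGTG, and EGLN3 holds none of either. The window of CA12, not printed, holds no ACGTG and 2 matches to GCGTG. No entry was matched for BNIP3L, NDRG1, SLC16A1 and SLC2A3. Over the 300-base windows that RefSeq gives for the other 34 members (62 windows), ACGTG was present in 37.1% against 21.41% of all 35116 windows, and GCGTG in 43.55% against 36.54%. Some members have several windows, which can overlap, so the windows are not independent. By gene, 19 of the 34 had ACGTG in at least 1 window and 22 had GCGTG. A like share over all genes was not computed. The core of the Tcf/Lef sites, ATCAAAG, was in 0 of the 62 windows against 2.617% of all windows, searched on both strands. These are matches of letters in a window and not measured binding.

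In MDA-MB-231, reporter-positive cells had very little ALDOC and less EGLN3, SLC2A3, PKM, GPI, HK2, PFKP, PFKFB3, BNIP3L and KDM3A than reporter-negative cells, in both serum conditions. They had more DDIT4, ADM, EPAS1, PGK1 and SLC16A1, also in both. In MDA-MB-436, reporter-positive cells had an 8.5-fold lower level of SLC2A3 and higher levels of ADM and CA9, again in both serum conditions. Also lower there in both were ALDOC, CA12, DDIT4, TPI1, GAPDH, HK1, PKM, GPI, ENO2, SLC16A3, BNIP3, P4HA2 and PDK1. In bulk RNA, fewer cells that express a gene and less RNA per cell cannot be told apart. Among the 17 glycolytic enzymes, ALDOC alone was a DEG in these comparisons. The other enzymes differed by less than 1 on the log2 scale or were not called.

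The counts by comparison were as follows. In MDA-MB-231 in low serum, 13 members rose and 12 fell, while 19% of all genes tested rose and 19.9% fell (38.9% in all); the deposited TPM values gave 4 that rose and 16 that fell in a limma-trend fit on log2(TPM + 1). Without 7TGP-NEG replicate 1 the count fit called 15 members in this comparison, 8 higher and 7 lower, against 25. In MDA-MB-231 in standard serum, 7 rose and 16 fell, against 16.8% and 16.2% of all genes (33% in all). In MDA-MB-436 in low serum, 9 rose and 16 fell, against 26.6% and 25.3% (52% in all), with 3 and 23 on the TPM values. In MDA-MB-436 in standard serum, 3 rose and 24 fell, against 26.1% and 23.4% (49.5% in all), with 5 and 21 on the TPM values. In the last comparison the median log2 fold change of the members was -0.42 against 0.00 over all genes tested, and leaving out either 7TGP-POS library gave 28 or 27 members called against 27.

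DEGs were fewer than the calls. The DEGs among the members numbered 3 in MDA-MB-231 in low serum (5.9% of all genes), 3 in standard serum (7.69%), 4 in MDA-MB-436 in low serum (10.5%) and 6 in standard serum (12.5%). Over the 4 comparisons, 8 members were a DEG at least once, SLC2A3, SLC16A1, ALDOC, CA9, CA12, EGLN3, ADM and DDIT4, which is 21.1% of the members against 22.4% of the 15286 genes tested in both serum conditions. ALDOC, SLC2A3, PKM and GPI fell in all 4 comparisons, a pattern seen in 2.24% of all genes, and ADM rose in all 4, as 2.52% of all genes did. Each of the 38 members was called in at least 1 comparison, while 18.7% of all genes were called in none. The shares of all genes were not matched to the members for expression level. In low serum the median absolute log2 fold change of the members was 0.16 against 0.24 over all genes in MDA-MB-231, and 0.18 against 0.31 in MDA-MB-436. In standard serum it was 0.29 against 0.26, and 0.45 against 0.36.

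**Figure D1:**
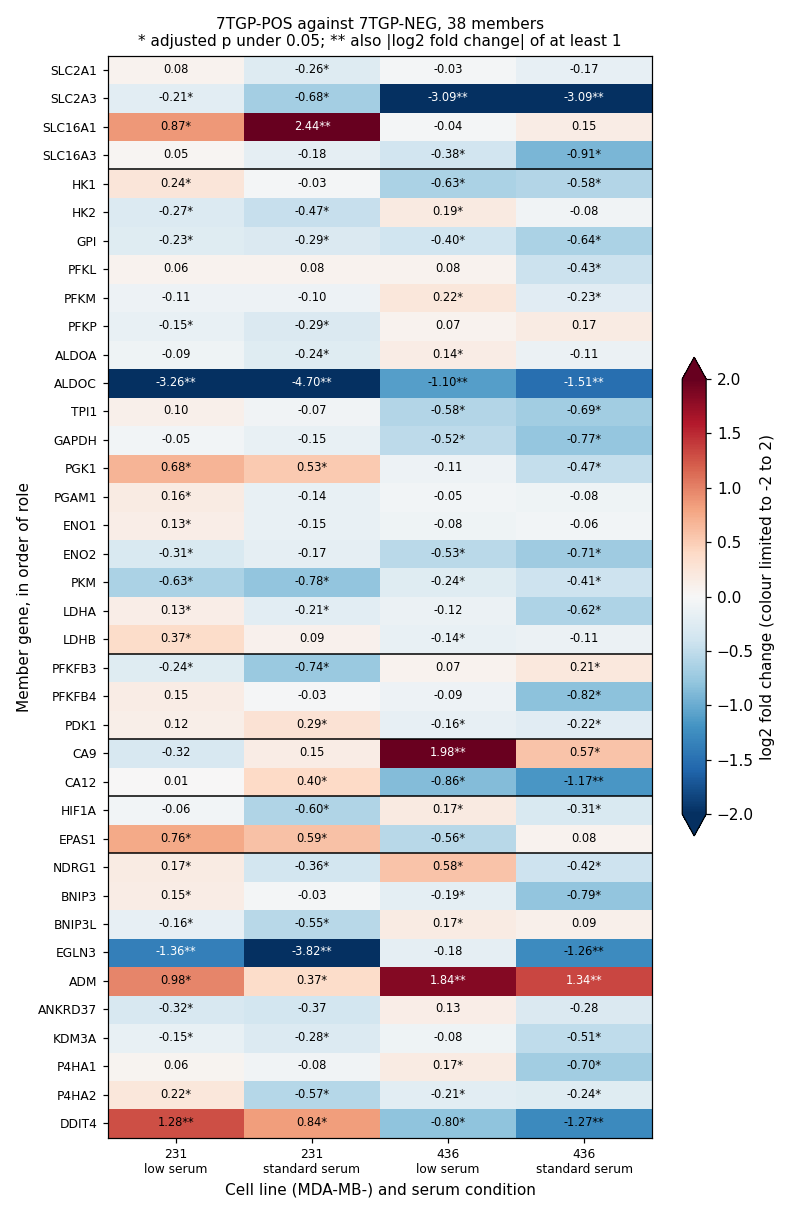
Heat map of the log2 fold change of 7TGP-POS against 7TGP-NEG for the 38 members (rows, grouped by role) in 4 comparisons (columns: line and serum condition), with the value printed in each cell, 1 asterisk for an edgeR adjusted p under 0.05 and a pair of asterisks for a DEG. ALDOC is below -1 in all 4 columns, SLC2A3 is at -3.09 in both MDA-MB-436 columns, and DDIT4 is above 0 in both MDA-MB-231 columns and below 0 in both MDA-MB-436 columns.

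Glucose enters cells through GLUT transporters, of which SLC2A1 (GLUT1) is the widely expressed basal form and SLC2A3 (GLUT3) a form with high affinity for glucose. SLC2A3 stood at 122 and 123 CPM in the MDA-MB-436 7TGP-NEG libraries in low serum and at 13.6 and 15.3 CPM in the 7TGP-POS libraries. In standard serum the same sublines held 104 and 102 CPM against 13 and 11.2 CPM. The groups were far apart in both serum conditions.

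The fitted change of SLC2A3 in MDA-MB-436 was -3.09 ± 0.07 (standard error) in low serum, an 8.53-fold lower level (edgeR adjusted p = 1.87e-32), and -3.09 ± 0.09 in standard serum, an 8.5-fold lower level (edgeR adjusted p = 2.57e-14). In MDA-MB-231, SLC2A3 held 73.2 and 80.4 CPM in 7TGP-NEG against 67 and 65.4 CPM in 7TGP-POS in low serum, and 117 and 112 CPM against 75.8 and 67.4 CPM in standard serum. Those changes were smaller, at -0.21 ± 0.06 and -0.68 ± 0.08 (edgeR adjusted p = 0.00363 and 5.14e-06), and the test of the difference between the lines gave 2.88 in low serum and 2.41 in standard serum (edgeR adjusted p = 1.6e-26 and 4.38e-11). SLC2A3 lies at chr12:8071826-8171603 on GRCh37, and reads of its near-identical copy SLC2A14 and of other copies amounted to at most 14.1% of its counts in low serum and 7.73% in standard serum, so the split of reads among the copies is uncertain. SLC2A14 also fell in MDA-MB-436, by 1.77 and 2.03 on the log2 scale.

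SLC2A1 moved little. Its levels in low serum were 454 and 426 CPM in MDA-MB-231 7TGP-NEG against 446 and 483 CPM in 7TGP-POS, and 145 and 151 CPM in MDA-MB-436 7TGP-NEG against 147 and 142 CPM in 7TGP-POS, so that the groups overlapped in both lines. In standard serum they were 313 and 309 CPM against 273 and 247 CPM in MDA-MB-231, where SLC2A1 fell by 0.26 on the log2 scale (edgeR adjusted p = 0.0127), and 203 and 204 CPM against 172 and 190 CPM in MDA-MB-436, where the change of -0.17 was not called (edgeR adjusted p = 0.0769). As a share of the summed TPM of both transporters, SLC2A3 made up 36.2% ± 0.5 (SD, n = 2) in MDA-MB-436 7TGP-NEG and 6.39% ± 0.64 in 7TGP-POS in low serum, while standard serum gave 25.7% ± 0.2 and 4.39% ± 0.73. In MDA-MB-231 the same share was 10.7% ± 1.1 and 8.89% ± 0.59 in low serum, while standard serum gave 20.1% ± 0.3 and 15.8% ± 0.1.

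Lactate crosses the membrane through SLC16A1 (MCT1), which works in import and export, and SLC16A3 (MCT4), the form typical of strongly glycolytic cells that export lactate. MDA-MB-436 expressed both forms and MDA-MB-231 almost only SLC16A3 by TPM share. SLC16A1 stood at 0.629 and 0.757 CPM in MDA-MB-231 7TGP-NEG in low serum and at 246 and 244 CPM in MDA-MB-436 7TGP-NEG, a 352-fold lower level in MDA-MB-231 (log2 fold change -8.46 ± 0.10), and at 0.658 and 1.05 CPM against 200 and 204 CPM in standard serum (-7.90 ± 0.14, 238-fold).

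Within MDA-MB-231, SLC16A1 was higher in 7TGP-POS, with 1.2 and 1.35 CPM (low serum) and 4.95 and 4.26 CPM (standard serum). The change was 0.87 ± 0.24 (edgeR adjusted p = 0.00868) and 2.44 ± 0.18, a 5.43-fold higher level (edgeR adjusted p = 8.93e-09), with no overlap between groups. These levels rest on 17 to 33 counts per low-serum library and 21 to 152 per standard-serum library, and SLC16A1 made up at most 2.08% of the summed TPM of SLC16A1 and SLC16A3 in any MDA-MB-231 library. In MDA-MB-436, SLC16A1 held 234 and 242 CPM in the low-serum 7TGP-POS libraries and 234 and 216 CPM in those of standard serum, and its changes of -0.04 and 0.15 were not called (edgeR adjusted p = 0.48 and 0.139). The difference of the changes between the lines was 2.29 ± 0.20 in standard serum (edgeR adjusted p = 7.46e-08) and 0.92 ± 0.25 in low serum (edgeR adjusted p = 0.00462).

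SLC16A3 fell in MDA-MB-436, from 197 ± 0.45 to 151 ± 7.0 CPM in low serum and from 148 ± 4 to 78.9 ± 14.2 CPM in standard serum (mean ± SD, n = 2; log2 fold change -0.38 and -0.91). In MDA-MB-231 its changes of 0.05 and -0.18 were not called. SLC16A3 overlaps CSNK1D on the other strand, which held at most 137% of its counts in a library and fell by 0.19 in MDA-MB-436 in standard serum, so its values are uncertain where counting ignored strand. SLC16A1 went from 63.5% to 68.8% of the summed TPM of both transporters in MDA-MB-436 in low serum and from 65.6% to 79.9% in standard serum.

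**Figure D2:**
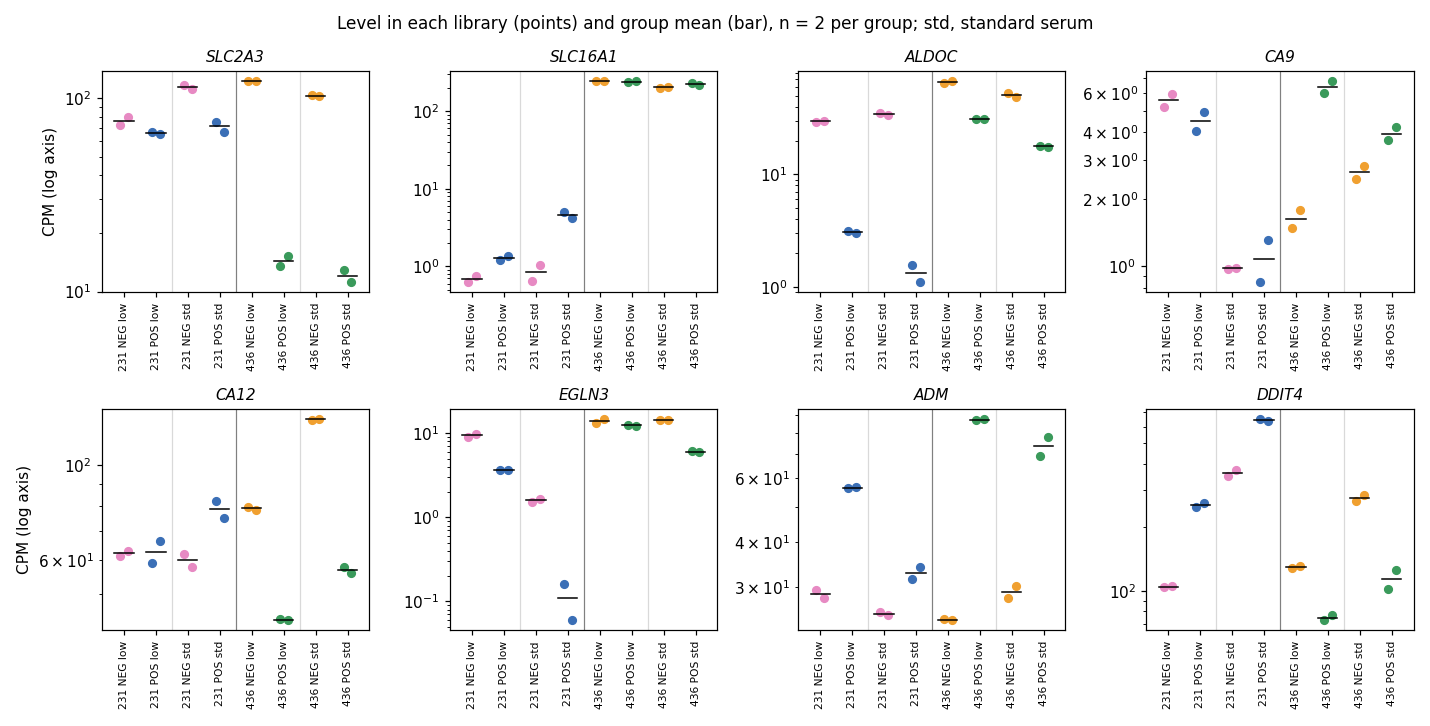
CPM (log axis, not starting at 0) of the 8 members that were a DEG in at least 1 comparison, with 1 panel per gene, 1 point per library, a bar at the mean of each group (n = 2) and colors for the 4 sublines. MDA-MB-436 7TGP-POS libraries sit at 11.2 to 15.3 CPM for SLC2A3 against 102 CPM or more in 7TGP-NEG, while the ALDOC points of MDA-MB-231 7TGP-POS sit at 1.1 to 3.15 CPM against 29.4 CPM or more in 7TGP-NEG.

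Among the 17 enzymes of the pathway, ALDOC changed most. Aldolase splits fructose 1,6-bisphosphate into a pair of triose phosphates, and ALDOC encodes the form best known from brain, while ALDOA encodes the form that most cells use. ALDOC held 29.4 and 29.9 CPM in MDA-MB-231 7TGP-NEG and 3.15 and 3.03 CPM in 7TGP-POS in low serum, and 35.5 and 33.8 CPM against 1.56 and 1.1 CPM in standard serum.

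In MDA-MB-436 the ALDOC levels were 64.7 and 68.1 CPM against 30.9 and 31.1 CPM in low serum, and 53.4 and 48.5 CPM against 18 and 17.7 CPM in standard serum. The 7TGP-POS libraries were below the 7TGP-NEG libraries in all 4 comparisons. The changes were -3.26 ± 0.10 and -4.70 ± 0.14 in MDA-MB-231, a 9.58-fold and a 26.1-fold lower level, and -1.10 ± 0.06 and -1.51 ± 0.10 in MDA-MB-436, a 2.14-fold and a 2.86-fold lower level (edgeR adjusted p = 4.53e-27, 1.5e-14, 2.69e-18 and 5.91e-10). The fall was larger in MDA-MB-231, by 2.16 in low and 3.19 in standard serum on the log2 scale (edgeR adjusted p = 5.91e-18 and 1.01e-10). ALDOC lies at chr17:26900133-26903966 on the minus strand of GRCh37 and overlaps RSKR, which held at most 149% of the counts of ALDOC in a library and was called in 1 of these comparisons, where it rose by 1.13 in MDA-MB-231 in standard serum.

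ALDOA, at a far higher TPM, differed by -0.24 to 0.14 on the log2 scale in the 4 comparisons, and its rise of 0.14 in MDA-MB-436 in low serum turned to -0.10 on the TPM values. As a share of the summed TPM of both aldolases, ALDOC went from 5.54% ± 0.02 (SD, n = 2) to 0.64% ± 0.04 in MDA-MB-231 in low serum and from 7.10% ± 0.08 to 0.35% ± 0.06 in standard serum. In MDA-MB-436 it went from 12.3% ± 0.1 to 5.59% ± 0.18 and from 8.50% ± 0.06 to 3.40% ± 0.28. ALDOA held the larger share of the aldolase TPM in each library.

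PKM, the last enzyme of the pathway and the source of pyruvate, fell in all 4 comparisons. In low serum it held 5896 ± 143 CPM (SD, n = 2) in MDA-MB-231 7TGP-NEG against 3802 ± 220 in 7TGP-POS, and 1359 ± 48 against 1151 ± 45 in MDA-MB-436. In standard serum the levels were 2686 ± 44 against 1562 ± 68 CPM and 1038 ± 48 against 779 ± 10 CPM. The changes were -0.63 and -0.78 in MDA-MB-231 and -0.24 and -0.41 in MDA-MB-436, and the fall was larger in MDA-MB-231, by 0.39 in low and 0.37 in standard serum (edgeR adjusted p = 3.3e-05 and 0.00872). GPI, which converts glucose 6-phosphate to fructose 6-phosphate, fell by 0.23 and 0.29 in MDA-MB-231 and by 0.40 and 0.64 in MDA-MB-436 on the log2 scale.

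LDHA makes lactate from pyruvate. In low serum it stood at 1356 and 1409 CPM in MDA-MB-231 7TGP-NEG and at 1445 and 1582 CPM in 7TGP-POS, and at 569 and 581 CPM against 545 and 512 CPM in MDA-MB-436. In standard serum the values were 689 and 670 CPM against 614 and 558 CPM, and 594 and 576 CPM against 392 and 368 CPM. The groups did not overlap in any of these pairs, but the size of the change differed, with a fall of 0.62 ± 0.08 in MDA-MB-436 in standard serum (edgeR adjusted p = 1.92e-06) and 0.21 ± 0.08 in MDA-MB-231 (edgeR adjusted p = 0.0357). In low serum the rise of 0.13 in MDA-MB-231 (edgeR adjusted p = 0.0424) turned to -0.07 on the TPM values, and the change of -0.12 in MDA-MB-436 was not called (edgeR adjusted p = 0.0501).

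In MDA-MB-436 in standard serum, 11 of the 17 enzymes fell and none rose, beside 23.4% and 26.1% of all genes. Beside those above they were HK1 (-0.58), PFKL (-0.43), PFKM (-0.23), TPI1 (-0.69), GAPDH (-0.77), PGK1 (-0.47) and ENO2 (-0.71) on the log2 scale. In low serum 8 fell and 3 rose in that line, beside 25.3% and 26.6% of all genes, and the rises of HK2 (0.19), PFKM (0.22) and ALDOA (0.14) turned to between -0.10 and -0.02 on the TPM values. In MDA-MB-231, 6 rose and 6 fell in low serum (19% and 19.9% of all genes), where the rises of PGAM1, ENO1 and LDHA (0.16, 0.13 and 0.13) turned to between -0.07 and -0.05 on the TPM values, and 1 rose and 7 fell in standard serum (16.8% and 16.2%).

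The summed TPM of the 17 enzymes was 17469 and 16787 in the MDA-MB-436 7TGP-NEG libraries in standard serum and 12332 and 12528 in 7TGP-POS. In low serum, where TPM values are shifted down, the sums were 11891 and 11306 against 7367 and 7763, while the summed CPM went from 14669 and 15365 to 12475 and 11689. MDA-MB-231 held 10686 and 10166 against 9930 and 9090 in standard serum, and 8817 and 9272 against 8142 and 7464 in low serum. On CPM that low-serum pair was closer, at 19242 and 19924 against 17888 and 19031, so its size depends on the scaling. The 7TGP-POS libraries were below the 7TGP-NEG libraries in each pair, and GAPDH, at 1854 to 9046 TPM, had the highest group mean of the members except in MDA-MB-231 7TGP-POS in low serum, where ENO1 did. The sums are weighted to the most highly expressed enzymes and do not show that each enzyme fell. In MDA-MB-231 in low serum, where 6 enzymes rose and 6 fell, PKM went from 1464 and 1535 to 867 and 813 TPM. In MDA-MB-436 in standard serum, GAPDH went from 9046 and 8566 to 5485 and 5600 TPM.

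PGK1, the first enzyme of the pathway to yield ATP, was the enzyme that rose in MDA-MB-231 in both serum conditions. It rose from 916 ± 8 to 1464 ± 96 CPM in low serum and from 575 ± 24 to 828 ± 49 CPM in standard serum (SD, n = 2; log2 fold change 0.68 and 0.53). In MDA-MB-436 the change was -0.11 in low serum, which was not called, and -0.47 in standard serum. The difference between the lines was 0.78 in low serum and 1.00 in standard serum (edgeR adjusted p = 1.04e-11 and 6.11e-07), the latter just under the DEG size.

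**Figure D3:**
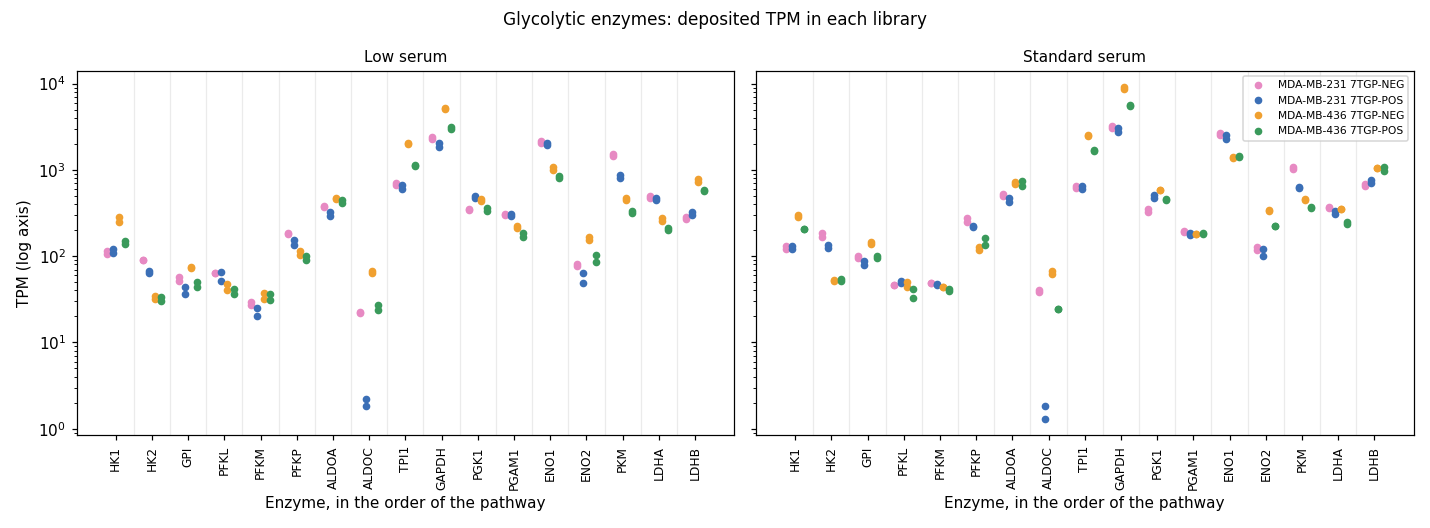
Deposited TPM (log axis, not starting at 0) of the 17 glycolytic enzymes in the order of the pathway in low serum (left) and standard serum (right), with 1 point per library and colors for the 4 sublines. GAPDH, TPI1 and HK1 are highest in MDA-MB-436 7TGP-NEG, PKM is highest in MDA-MB-231 7TGP-NEG, and the ALDOC points of MDA-MB-231 7TGP-POS lie at 1.3 to 2.19 TPM.

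Some of these changes were shared with the neighbourhood of the gene. The median log2 fold change of the 50 nearest expressed genes was -0.40 around GAPDH and -0.39 around TPI1 and ENO2 in MDA-MB-436 in low serum, and in standard serum -0.60, -0.58 and -0.58, all on chromosome 12, beside changes of -0.52, -0.58 and -0.53 and of -0.77, -0.69 and -0.71 for the genes. GAPDH, TPI1 and ENO2 lie close together there, so their neighbours overlap and these medians are not separate observations. For SLC2A3, on the same arm of that chromosome, the neighbours stood at -0.40 and -0.56 against -3.09. These neighbours may be partly the same genes as those above, so this median is not a separate observation either. The neighbours of PGK1 on chromosome X stood at 0.48 and 0.71 in MDA-MB-231 beside 0.68 and 0.53 for the gene, so that PGK1 lay 0.19 below its neighbours in standard serum, and those of PKM on chromosome 15 stood at -0.45 and -0.46 beside -0.63 and -0.78. Around ALDOC, EGLN3 and ADM the medians lay between -0.07 and 0.21. The part of the neighbourhood in each change was not tested.

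The 3 regulators differed between the lines. PFKFB3 and PFKFB4 make fructose 2,6-bisphosphate, the activator of phosphofructokinase, and PDK1 keeps pyruvate out of the mitochondria by inhibiting pyruvate dehydrogenase. PFKFB3 fell in MDA-MB-231 by 0.24 and 0.74 and rose by 0.21 in MDA-MB-436 in standard serum on the log2 scale, with neighbours at -0.36, -0.50 and 0.28. PFKFB4 fell by 0.82 in MDA-MB-436 in standard serum and was not called in the other 3 comparisons. PDK1 rose by 0.29 in MDA-MB-231 in standard serum and fell by 0.16 and 0.22 in MDA-MB-436.

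Carbonic anhydrases at the cell surface convert carbon dioxide to bicarbonate and a proton and so help glycolytic cells to control pH, and CA9 is a classic marker of hypoxia. CA9 was low throughout, at 26 to 184 counts per library. In MDA-MB-436 it held 1.48 and 1.78 CPM in 7TGP-NEG and 5.99 and 6.81 CPM in 7TGP-POS in low serum, and 2.47 and 2.83 CPM against 3.68 and 4.2 CPM in standard serum.

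In low serum CA9 rose in MDA-MB-436 by 1.98 ± 0.18 (log2), a 3.94-fold higher level (edgeR adjusted p = 2.01e-12), and by 0.57 ± 0.19 in standard serum (edgeR adjusted p = 0.0184). In MDA-MB-231 the levels were 5.18 and 5.94 CPM against 4.05 and 4.92 CPM (low serum) and 0.971 and 0.981 CPM against 0.847 and 1.31 CPM in standard serum, and the changes of -0.32 and 0.15 were not called (edgeR adjusted p = 0.111 and 0.734). The difference between the lines was -2.29 ± 0.24 in low serum (edgeR adjusted p = 1.37e-10) and -0.41 ± 0.34 in standard serum (edgeR adjusted p = 0.367). CA9 overlaps ARHGEF39 on the other strand, and whether counting used strand is not stated. ARHGEF39 was higher than CA9 in MDA-MB-436, at 43.5 CPM in 7TGP-NEG and 29.6 CPM in 7TGP-POS in low serum, and fell there by 0.55 on the log2 scale, opposite to CA9.

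CA12, the other surface form, moved the other way. It held 79.7 and 78.6 CPM in MDA-MB-436 7TGP-NEG and 43.7 and 43.4 CPM in 7TGP-POS in low serum, and 127 and 128 CPM against 57.8 and 56 CPM in standard serum. CA12 fell by 0.86 ± 0.06 and by 1.17 ± 0.08 on the log2 scale (edgeR adjusted p = 1.44e-15 and 8.55e-10), with no overlap between groups.

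In MDA-MB-231, CA12 held 61.3 and 62.9 CPM against 58.9 and 66.4 CPM in low serum, where the groups overlapped (log2 fold change 0.01), and 62.1 and 57.8 CPM against 82.6 and 75.2 CPM in standard serum, a rise of 0.40 ± 0.08 (edgeR adjusted p = 0.000608). The difference between the lines was 0.87 in low serum and 1.56 in standard serum (edgeR adjusted p = 3e-11 and 3.22e-09). CA9 went from 8.26% ± 1.09 (SD, n = 2) to 39.1% ± 2.3 of the summed TPM of both anhydrases in MDA-MB-436 in low serum.

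HIF1A and EPAS1 encode the oxygen-regulated subunits HIF-1α and HIF-2α, which are controlled mainly at the level of protein stability, so their messages are not a readout of HIF activity. HIF1A stood at 677 and 674 CPM in MDA-MB-231 7TGP-NEG against 627 and 670 CPM in 7TGP-POS in low serum, and at 491 and 467 CPM against 328 and 304 CPM in standard serum. In MDA-MB-436 it stood at 307 and 310 CPM against 345 and 350 CPM, and at 248 and 259 CPM against 208 and 201 CPM. HIF1A fell in standard serum in both lines, by 0.60 ± 0.07 and 0.31 ± 0.07 on the log2 scale (edgeR adjusted p = 3.8e-06 and 0.0017). In low serum the change of -0.06 in MDA-MB-231 was not called, and the rise of 0.17 in MDA-MB-436 (edgeR adjusted p = 0.00306) turned to -0.07 on the TPM values.

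EPAS1 held 92.3 and 87.5 CPM in MDA-MB-231 7TGP-NEG against 150 and 154 CPM in 7TGP-POS in low serum, and 157 and 146 CPM against 235 and 222 CPM in standard serum. In MDA-MB-436 it held 311 and 316 CPM against 217 and 209 CPM, and 369 and 379 CPM against 397 and 391 CPM. The groups did not overlap in any of the 4 pairs. EPAS1 rose in MDA-MB-231 by 0.76 ± 0.05 and 0.59 ± 0.07, fell in MDA-MB-436 in low serum by 0.56 ± 0.05, and was not called there in standard serum at 0.08 ± 0.07 (edgeR adjusted p = 9.63e-16, 4.15e-06, 7.96e-13 and 0.401). The difference between the lines was 1.31 ± 0.07 in low and 0.51 ± 0.10 in standard serum (edgeR adjusted p = 4.87e-19 and 0.00048).

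EPAS1 went from 8.58% ± 0.27 (SD, n = 2) to 14.2% ± 0.3 of the summed TPM of HIF1A and EPAS1 in MDA-MB-231 in low serum, and from 18.3% ± 0.2 to 33.8% ± 0.4 in standard serum. In MDA-MB-436 the share went from 41.8% ± 0.04 to 30.2% ± 0.77 in low serum and from 51.0% ± 0.2 to 57.6% ± 0.3 in standard serum. HIF1A was the larger message in all MDA-MB-231 libraries.

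Of the 10 hypoxia-response genes outside glycolysis, EGLN3, ADM and DDIT4 changed most, and in different ways. EGLN3 encodes a HIF prolyl hydroxylase that is itself induced by HIF. It held 9.14 and 9.8 CPM in MDA-MB-231 7TGP-NEG against 3.67 and 3.69 CPM in 7TGP-POS in low serum. In standard serum it held 1.53 and 1.65 CPM, which are 49 and 47 counts, against 0.163 and 0.0596 CPM, which are 5 and 2 counts.

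In MDA-MB-436, EGLN3 held 13.4 and 14.8 CPM against 12.6 and 12.3 CPM (low serum) and 14.6 and 14.5 CPM against 6.12 and 6.01 CPM in standard serum. The 7TGP-POS libraries were lower in all 4 pairs. EGLN3 fell by 1.36 ± 0.13 and 3.82 ± 0.36 in MDA-MB-231 and by 1.26 ± 0.13 in MDA-MB-436 in standard serum (edgeR adjusted p = 2.89e-11, 1.57e-07 and 3.17e-07), while -0.18 ± 0.10 in MDA-MB-436 in low serum was not called (edgeR adjusted p = 0.136). The fall was larger in MDA-MB-231, by 1.19 in low and 2.56 in standard serum (edgeR adjusted p = 1.32e-07 and 7.21e-05), but on log2(TPM + 1) the standard-serum difference was 0.26 in the other direction. SPTSSA overlaps EGLN3 in the annotation on the same strand and held many more counts, with changes between -0.04 and 0.47.

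ADM encodes adrenomedullin, a secreted peptide that widens vessels. Its levels in low serum were 29.4 and 27.9 CPM in MDA-MB-231 7TGP-NEG against 56.2 and 56.7 CPM in 7TGP-POS, and 24.4 and 24.2 CPM in MDA-MB-436 7TGP-NEG against 86.7 and 87.5 CPM in 7TGP-POS. In standard serum they were 25.5 and 25.1 CPM against 31.5 and 34 CPM, and 28 and 30.2 CPM against 69.1 and 77.9 CPM. ADM was higher in 7TGP-POS in every pair, without overlap. It rose by 0.98 ± 0.06 and 0.37 ± 0.09 in MDA-MB-231 and by 1.84 ± 0.06 and 1.34 ± 0.09 in MDA-MB-436 (edgeR adjusted p = 2.11e-16, 0.00343, 3.62e-26 and 7.64e-10), and the rise was smaller in MDA-MB-231 by 0.86 in low and 0.96 in standard serum (edgeR adjusted p = 1.07e-10 and 7.41e-06).

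DDIT4 encodes REDD1, an inhibitor of mTORC1 that responds to hypoxia and to other stresses. It held 104 and 105 CPM in MDA-MB-231 7TGP-NEG against 249 and 260 CPM in 7TGP-POS in low serum, and 350 and 372 CPM against 652 and 640 CPM in standard serum. In MDA-MB-436 it held 128 and 132 CPM against 72.6 and 76.7 CPM, and 268 and 284 CPM against 103 and 125 CPM. The groups were apart in all 4 pairs, with 7TGP-POS higher in MDA-MB-231 and lower in MDA-MB-436.

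DDIT4 was the only member called in all 4 comparisons with opposite directions between the lines in both serum conditions, as 4.11% of all genes were. By sign alone, called or not, BNIP3L, CA12, LDHB, PDK1, PFKFB3, PFKP and PGK1 were opposite as well. DDIT4 rose by 1.28 ± 0.05 and 0.84 ± 0.09 in MDA-MB-231 and fell by 0.80 ± 0.05 and 1.27 ± 0.09 in MDA-MB-436 (edgeR adjusted p = 2.13e-23, 6.39e-07, 1.05e-16 and 1.85e-09). The difference between the lines was 2.08 ± 0.07 in low and 2.11 ± 0.12 in standard serum (edgeR adjusted p = 3.05e-25 and 3.31e-10).

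The other 7 genes of this group, NDRG1, BNIP3, BNIP3L, ANKRD37, KDM3A, P4HA1 and P4HA2, had log2 fold changes of -0.79 to 0.58. NDRG1, a common hypoxia marker, rose in low serum in both lines (0.17 and 0.58, the first turning to -0.03 on the TPM values) and fell in standard serum in both (-0.36 and -0.42). BNIP3, a mitophagy receptor, fell by 0.79 in MDA-MB-436 in standard serum, and P4HA1, a collagen prolyl hydroxylase, fell by 0.70 there. ANKRD37 and BNIP3L overlap other genes with more reads, UFSP2 and PNMA2, on the other strand, and 42 pseudogene copies of BNIP3 held 3.27% to 6.72% of its counts in low serum, so their values are uncertain.

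The difference of the POS against NEG change between the lines was called for 31 members in low serum, against 45.7% of all genes, and for 28 in standard serum, against 41.2%. In low serum the TPM values called it for 19 members on log2(TPM + 1) and 20 on log2(TPM + 0.1). In each serum condition, 6 differences of the count fit were of DEG size, against 11.7% and 13.8% of all genes. In low serum these were SLC2A3, EPAS1 and DDIT4, with a higher change in MDA-MB-231, and ALDOC, CA9 and EGLN3, with a lower one. In standard serum they were SLC2A3, SLC16A1, CA12 and DDIT4, and ALDOC and EGLN3. The sign of the change, called or not, was the same in both lines for 12 of 38 members (low serum) and 29 of 38 (standard serum), against 49.5% and 48% of all genes. Between the serum conditions it was the same for 25 of 38 in MDA-MB-231 and 28 of 38 in MDA-MB-436, against 68% and 73.4% of all genes.

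The reporter-negative sublines of the lines differed at most members, as they did at most genes. Line and culture medium changed together here, so these differences cannot be assigned to the line alone. In low serum, MDA-MB-231 7TGP-NEG exceeded MDA-MB-436 7TGP-NEG at 21 members and fell short of it at 13, against 39.6% and 39.6% of all genes (79.2% called). In standard serum the numbers were 18 and 17, against 37.3% and 41.4% (78.8% called). These comparisons share the 7TGP-NEG libraries with those above. Among the members higher in MDA-MB-231 in both serum conditions were NDRG1 (2.90 and 1.45 on the log2 scale), BNIP3L (2.22 and 2.13), PFKFB3 (2.15 and 1.36), PFKFB4 (2.16 and 1.26), PKM (2.12 and 1.37), SLC16A3 (2.00 and 1.34) and HK2 (1.86 and 1.91). The mean level of ENO1 was also higher, at 3810 against 1420 CPM in low serum and 3097 against 1462 CPM in standard serum.

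Among the members lower in MDA-MB-231 were SLC16A1, TPI1 (-1.16 and -1.83), EPAS1 (-1.80 and -1.30), HK1 (-0.86 and -1.04), GAPDH (-0.74 and -1.32) and PDK1 (-0.51 and -1.79). By mean CPM, ENO2 (157 against 238 in low serum, 157 against 389 in standard serum) and LDHB (379 against 779, 597 against 828) were also lower. CA9 was higher in MDA-MB-231 in low serum (1.78 ± 0.19) and lower in standard serum (-1.44 ± 0.24). EGLN3 was lower in both, by 0.57 and 3.19. The small low-serum values of ADM (0.23), P4HA1 (0.37), ALDOA (0.09) and PGK1 (0.05), of which the last was not called, turned below 0 on the TPM values. On log2(TPM + 1), ALDOA and PGK1 were called lower, at -0.31 and -0.35 (limma-trend adjusted p = 0.00174 and 0.000354), so the direction for ALDOA depends on the scaling.

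The forms of paired enzymes also differed between the lines by TPM share. HK1 made up 54.9% ± 1.4 (SD, n = 2) of the summed TPM of HK1 and HK2 in MDA-MB-231 7TGP-NEG in low serum and 88.9% ± 0.2 in MDA-MB-436 7TGP-NEG, and 41.8% ± 0.4 and 84.8% ± 0.02 in standard serum. LDHA made up 63.7% ± 0.2 and 26.2% ± 0.1 of the summed TPM of LDHA and LDHB in low serum, while standard serum gave 35.3% ± 0.2 and 25.4% ± 0.03. In the 7TGP-POS libraries the HK1 share was higher in MDA-MB-231 (63.4% ± 1.1 and 49.2% ± 0.25) and lower in MDA-MB-436 (82.0% ± 0.20 and 79.6% ± 0.34), with no overlap between groups.

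**Figure D4:**
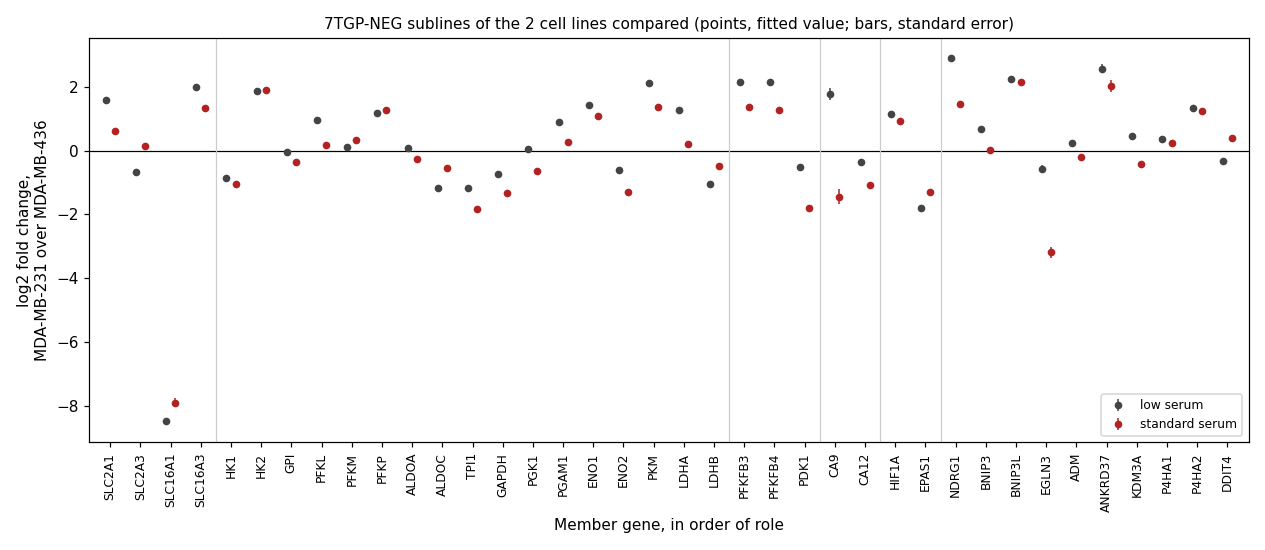
Log2 fold change of MDA-MB-231 7TGP-NEG over MDA-MB-436 7TGP-NEG for the 38 members (points, fitted value; bars, standard error) in low serum (gray) and standard serum (red). SLC16A1 lies at -8.46 and -7.90, EGLN3 at -0.57 and -3.19, and CA9 at 1.78 and -1.44.

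Further genes of the same pathways, from lists set by textbook roles with earlier results of these data known, are counted here beside the members. Of 37 other genes of glucose, lactate and glycogen handling tested in low serum, 8 rose and 6 fell in MDA-MB-231 and 9 rose and 13 fell in MDA-MB-436. Of 33 tested in standard serum, 7 rose and 6 fell, and 7 rose and 10 fell. The called shares of 37.8%, 59.5%, 39.4% and 51.5% stood beside 38.9%, 52%, 33% and 49.5% of all genes, in the same order. SLC2A10, another glucose transporter gene, rose by 1.73 and 2.54 in MDA-MB-231 and by 1.34 in MDA-MB-436 in low serum. SLC4A4, a sodium bicarbonate cotransporter, rose by 2.50 and 1.63 in MDA-MB-231, and PDK3, a pyruvate dehydrogenase kinase, fell there by 2.44 in standard serum. In MDA-MB-436, LDHD, a D-lactate dehydrogenase, rose by 2.11 (low serum) and 1.39 (standard serum), and in low serum PYGL, a glycogen phosphorylase, rose by 1.13 and PDK4 by 1.49.

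Of 43 other hypoxia-response genes tested in low serum, 16 rose and 5 fell in MDA-MB-231 and 21 rose and 10 fell in MDA-MB-436, and of 42 tested in standard serum, 8 rose and 7 fell, and 17 rose and 15 fell. The called shares were 48.8% and 72.1% in low serum, beside 38.9% and 52% of all genes, and 35.7% and 76.2% in standard serum, beside 33% and 49.5%. In MDA-MB-436, LOX, a collagen cross-linking enzyme, rose by 2.08 and 1.63, BHLHE41, a transcriptional repressor, by 2.66 and 1.88, and IGFBP3, an IGF-binding protein, by 1.65 and 1.76. In low serum RAB20 also rose there, by 1.02, and PPP1R3C, a glycogen-targeting phosphatase subunit, fell by 3.28. In standard serum 5 of the 9 DEGs of this list in MDA-MB-436 were lower, among them TMEM45A at -1.06, with the lowest at -2.45. In MDA-MB-231, ARNT2 (1.13) and TMEM45A (1.08) rose in low serum and STC2 (1.18) in standard serum. CXCR4, a chemokine receptor, fell by 1.09 in MDA-MB-231 and by 1.70 in MDA-MB-436 in standard serum. The median log2 fold change of this list in MDA-MB-436 in standard serum was 0.12, against -0.42 for the members and 0.00 for all genes.

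DDIT4 is also a stress gene, and the 13 genes of a stress list that includes it were counted beside it. In MDA-MB-231, 8 rose and none fell in low serum, with a median of 0.20, and 5 rose and 1 fell in standard serum, beside 19% and 19.9% of all genes that rose and fell in low and 16.8% and 16.2% in standard serum. In MDA-MB-436, 2 rose and 7 fell in low serum, with a median of -0.26, while 7 rose and 1 fell in standard serum, with a median of 0.31, beside 26.6% and 25.3%, and 26.1% and 23.4%, of all genes. In that last comparison DDIT4 was the gene that fell, and ASNS, asparagine synthetase, rose by 1.06.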

How the data were processed

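RNA-Seq libraries of 8 groups with 2 replicates each were analysed, grouped by the line, reporter sort and serum that their labels give. The authors aligned reads with STAR to hg19 with Gencode v19 annotation (version 2.6.1a in the submitters' processing notes). The deposited counts are whole reads per gene in a table for each serum condition. By the study's methods the library kits of both serum conditions kept strand, and read orientation was assessed. Whether counting used strand is not given in the sources used here. The TPM values were deposited by the authors in matching tables, and how they were computed is not given in the sources used here. According to the study's methods the serum conditions differ in library kit and sequencer, so each table was fitted on its own.

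A protein-coding gene was kept where its counts in the 8 libraries of a table came to 10 or more, and the kept genes were fitted with edgeR 4.0.16 (TMM scaling, robust quasi-likelihood F test, 4 groups, no covariate, R 4.3.3), and p-values were adjusted by Benjamini-Hochberg over all genes tested. Contrasts were 7TGP-POS against 7TGP-NEG in each line, the difference of these between lines (MDA-MB-231 minus MDA-MB-436), and MDA-MB-231 7TGP-NEG against MDA-MB-436 7TGP-NEG. Standard errors were derived from the F statistic, as the size of the log2 fold change over the root of F. The fit was tested on simulated data for the MDA-MB-231 contrast, where all of 200 genes changed 4-fold were recovered with 3 false calls among 16069 genes (low serum) and 1 among 15414 (standard serum). The changed genes came from those with higher mean counts, the spread used was estimated from these data, and a call needed DEG size. Smaller changes and genes with few counts were therefore not covered.

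Biotypes came from Gencode v44 mapped to GRCh37, and the neighbours of a gene are the 50 nearest tested genes whose mean reached 1 CPM. Alternatives were DESeq2 1.42.0, its size factors in edgeR, other filters, all biotypes, limma-trend (limma 3.58.1) on log2(TPM + 1) and log2(TPM + 0.1), a replicate block, each replicate left out, and subtraction of the neighbours' median. The members and gene lists were chosen with earlier results of these data known. Values in every library are given for members that were a DEG at least once and for SLC2A1, LDHA, HIF1A and EPAS1, other members are named where their pattern or role group is described, and for the other lists at most 5 DEGs per comparison. Counts and CPM cover the precision of reads, and PCR copies of reads are not independent molecules.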

Additional observations from a re-analysis of the deposited data

Results flagged for a closer look

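The results below are those where the change of 7TGP-POS against 7TGP-NEG differed between the lines by at least 1 on the log2 scale with an adjusted p under 0.05 in edgeR's quasi-likelihood test of the difference itself (MDA-MB-231 minus MDA-MB-436). In low serum the difference was 2.88 for SLC2A3, 2.08 for DDIT4 and 1.31 for EPAS1, and -2.29 for CA9, -2.16 for ALDOC and -1.19 for EGLN3. In standard serum it was 2.41 for SLC2A3, 2.29 for SLC16A1, 2.11 for DDIT4 and 1.56 for CA12, and -3.19 for ALDOC and -2.56 for EGLN3.

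The values for SLC16A1, CA9 and EGLN3 rest on the fewest reads, with as few as 17, 26 and 2 counts in a library. With 2 replicates per group, no group was large enough to ask whether 1 library stood apart within it.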

How the results depend on the processing

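No member's called change reversed direction under DESeq2, its size factors, the other filters on low counts, all biotypes or the replicate block. On log2(TPM + 1), where the low-serum median of all genes shifts down, called low-serum rises turned below 0 in MDA-MB-231 for PGAM1 (-0.046), ENO1 (-0.069), LDHA (-0.072), NDRG1 (-0.034) and BNIP3 (-0.052), and in MDA-MB-436 for HK2 (-0.060), PFKM (-0.020), ALDOA (-0.10), HIF1A (-0.074), BNIP3L (-0.079) and P4HA1 (-0.078). On log2(TPM + 0.1) the values were -0.046, -0.069, -0.073, -0.035 and -0.053, and -0.062, -0.021, -0.10, -0.075, -0.081 and -0.078, in the same order. Between the 7TGP-NEG sublines in low serum, ALDOA (-0.31), PGK1 (-0.35), ADM (-0.16, and -0.17 with 0.1) and P4HA1 (-0.032 with either) turned, and with 0.1 also PFKM (-0.28). Of these, ALDOA and PGK1 were called lower with either, and PFKM with 0.1. The low-serum difference between lines was called for 19 members with 1 and 20 with 0.1, against 31, and the EGLN3 difference in standard serum turned to 0.26 with 1. Over all genes in low serum, 973 were called higher and 3757 lower on log2(TPM + 1) in MDA-MB-231 against 3060 and 3190 in the count fit, 1695 and 5647 against 4277 and 4071 in MDA-MB-436, and 4041 and 7654 against 6369 and 6361 between the 7TGP-NEG sublines. In MDA-MB-436 in standard serum they were 4894 and 2856 against 4028 and 3603.

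Subtracting the neighbours' median turned PFKP (0.22) and PFKFB3 (0.12) in MDA-MB-231 in low serum, PFKP (0.22) and PGK1 (-0.19) in standard serum, ALDOA (-0.094), PDK1 (0.23) and HIF1A (-0.17) in MDA-MB-436 in low serum, and PFKFB3 (-0.073) and PDK1 (0.11) in standard serum. The cause was not tested in any of these cases.

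Over all comparisons, values uncalled in both fits changed sign for 24 member results on log2(TPM + 1) and 23 on log2(TPM + 0.1), and for at most 3 under any other alternative. Leaving out each replicate in turn called 15 to 26 members in MDA-MB-231 in low serum (15 without 7TGP-NEG replicate 1, against 25), 16 to 23 in standard serum, 19 to 24 in MDA-MB-436 in low serum and 22 to 28 in standard serum. The labels number the replicates, but the deviations of same-numbered libraries correlated at -0.13 to 0.03 in low serum and -0.03 to 0.21 in standard serum, so the numbers were not taken to pair the samples. The replicate block left 302 of 304 member results on their side of the threshold and weakened 2. A crossed block in MDA-MB-436 in low serum, chosen after seeing the data, left 36 of 38 and strengthened 2.

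With 2 libraries per group, small changes near the threshold are the least certain, and members with few counts (SLC16A1 in MDA-MB-231, CA9 and EGLN3) carry the largest standard errors.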
